A study of Mus musculus with 8 samples.

Results

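Oxidative phosphorylation is the process by which mitochondria make most of the ATP of a cell. The nuclear genes for the proteins of its machinery were picked from the deposited tables by symbol: rows beginning with Nduf and a letter and number (complex I), Sdha to Sdhd (complex II), Uqcr (complex III), Cycs (cytochrome c), Cox4 to Cox8 (complex IV) and Atp5 (complex V), leaving out names ending in -ps. The rule used no measured value and gave 86 of the 35583 genes listed, after 1 pseudogene name, Ndufb1-ps, was dropped. Complex I had 37 of them, complex II 4, complex III 8, complex IV 18, complex V 18 and cytochrome c 1. Assignment went by prefix, so Ndufa4, which is known as a subunit of complex IV, was counted with complex I. The subunits Ndufab1 and Cyc1 do not match the rule and are described with the other mitochondrial lists.

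In the respiratory chain, complex I takes electrons from NADH and complex II takes them from succinate. Complex III passes them to cytochrome c, and complex IV, cytochrome c oxidase, gives them to oxygen. Complexes I, III and IV pump protons out of the mitochondrial matrix, and complex V, the ATP synthase, lets them flow back to make ATP. Most subunits are encoded in the nucleus, and a small set is encoded in mitochondrial DNA. Microglia, the resident macrophages of the brain, are known to use both this pathway and glycolysis.

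The study compared microglia of the hypothalamus, sorted into plasma-positive and plasma-negative cells 20 hours after young wild-type mice received plasma protein labelled with a dye. Each group had 4 libraries made with Smart-seq2, a full-length RNA-seq protocol for small inputs. As far as the labels say, cells of both groups came from mice of the same genotype and treatment. It is not stated whether plasma-positive and plasma-negative libraries came from the same mice, and the main test treats them as unpaired. With the replicate number added to the test as a pairing, none of the subunit genes was called. The labels give no age beyond young, no sorting markers and no statement that libraries of a group came from separate animals, so the p-values measure only the spread between these libraries, which may be technical. Library totals ran from 2963094 counts, in plasma-negative replicate 4, to 21422738. All 8 microglia markers examined had counts, and their summed level was 64721 to 75481 CPM (counts scaled to a common library size with TMM factors) in plasma-negative libraries and 71724 to 76526 in plasma-positive ones. In edgeR's test 2 of the 8 (25%, against 0.844% of all tested genes) were called higher, C1qa and Csf1r, while all values of Cx3cr1 were lower in plasma-positive libraries, with a log2 fold change of -0.11 that was not called (edgeR adjusted p 0.232). Counted reads made up 68.9% to 74.6% of the total behind the deposited RPKM values in plasma-negative libraries and 81.4% to 84.2% in plasma-positive ones, and the part of this difference in the results below was not tested.

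Subunit genes of oxidative phosphorylation took a larger part of the counts in plasma-positive microglia. The 86 genes together held 0.524% ± 0.0171 (SD, n = 4) of the counts in plasma-negative libraries, with a range of 0.501% to 0.538%, and 0.657% ± 0.0398 (SD, n = 4) in plasma-positive libraries, with a range of 0.62% to 0.713%. The ranges do not overlap. On the TMM scale the summed level was 5104, 5132, 4958 and 4990 CPM in plasma-negative replicates 1 to 4, and 6836, 7330, 6472 and 6772 CPM in plasma-positive replicates 1 to 4, which is 1.36 times as high on average. In bulk samples such as these, fewer cells of a type and less RNA per cell cannot be told apart, and the values are shares of each library, not amounts per cell.

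Of the 86 genes, 3 had no count in any library and 79 passed the expression filter and were tested. The log2 fold change of plasma-positive over plasma-negative was above 0 for 76 of the 79 (96.2%), against 50.4% of the 13277 genes tested. Its median was 0.46 over the 79, with a range of -1.72 to 1.36, and 0.01 over all tested genes. Few of the single genes passed the test: with edgeR's quasi-likelihood test and Benjamini-Hochberg adjustment over all tested genes, 4 of the 79 (5.06%) were called higher at an adjusted p under 0.05, against 0.844% of all tested genes. None was called lower, where the share over all tested genes was 0.565%. At an unadjusted p under 0.05 in the same edgeR fit, 27 of 79 (34.2%) were higher, against 7.13% of all tested genes, and 1 was lower, against 6.67%. In 27 of 79 (34.2%) all 4 plasma-positive libraries lay above all 4 plasma-negative ones, against 5.68% of all tested genes, and in 1 they lay below, against 4.59%.

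The difference was seen in every plasma-positive library. Against the mean of the plasma-negative libraries, the median of the 79 genes stood at a log2 value of 0.06, 0.01, 0.01 and -0.02 in plasma-negative replicates 1 to 4 and at 0.46, 0.61, 0.39 and 0.50 in plasma-positive replicates 1 to 4. In each plasma-positive library 70 to 75 of the 79 genes lay above that mean, and in the plasma-negative libraries 37 to 45 did. Without plasma-negative replicate 1, 2, 3 or 4 in turn, 2, 2, 0 and 3 of the genes were called higher, and without plasma-positive replicate 1, 2, 3 or 4 it was 0, 0, 1 and 0, while the median stayed between 0.42 and 0.48. In the same fits the calls over all genes, 187 with all 8 libraries, numbered 90, 86, 66 and 203 and then 68, 73, 93 and 78. Scaling by library totals alone gave no call and a median of 0.35, where all tested genes had a median of -0.11. DESeq2 called 11 of the members higher, where it called 2.61% of all 12725 genes with an adjusted p, and 1, Atp5l, lower, where it called 2.84%.

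**Figure D1:**
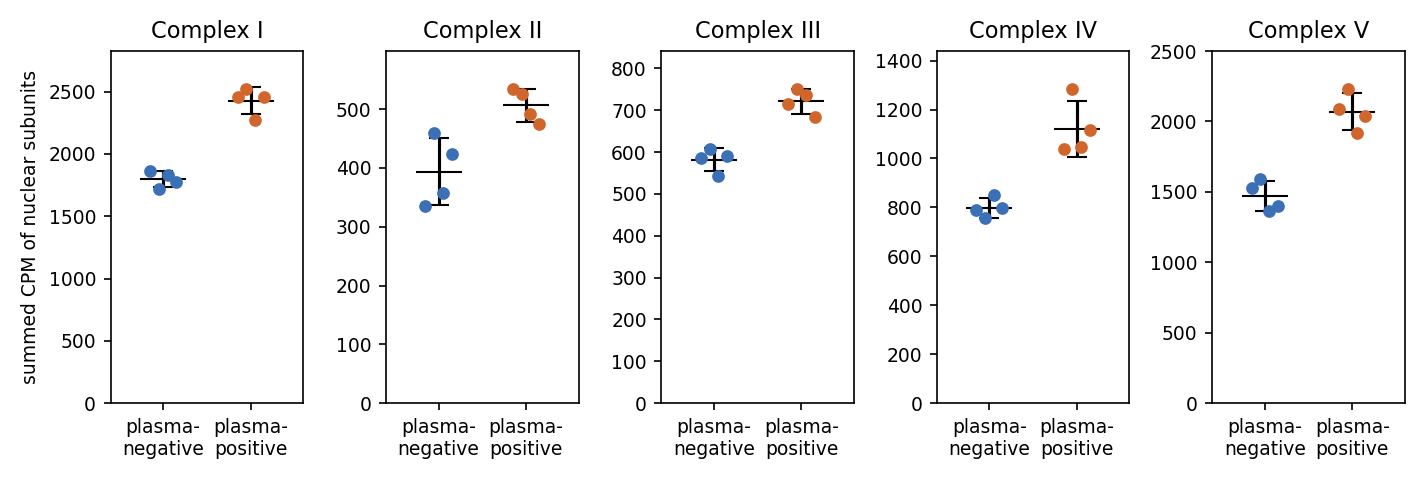
Summed level (CPM, vertical axes from 0) of the nuclear subunit genes of each complex in the 4 plasma-negative (blue) and 4 plasma-positive (orange) libraries, with the mean and SD as black bars. In all 5 complexes every plasma-positive point lies above every plasma-negative point, with the smallest gap in complex II, from 459 to 474 CPM.

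Each complex had a higher summed level in plasma-positive libraries. Complex I summed to 1861, 1721, 1833 and 1778 CPM in the plasma-negative and to 2455, 2525, 2275 and 2454 CPM in the plasma-positive libraries, 1.35 times as high. Complex IV went from 799 ± 40.0 to 1122 ± 115 CPM (SD, n = 4 each) and complex V from 1472 ± 105 to 2070 ± 131 CPM (SD, n = 4 each), each 1.41 times as high. The ratios were 1.29 for complex II, from 394 ± 57.3 to 506 ± 28.7 CPM, and 1.24 for complex III, from 582 ± 27.0 to 721 ± 29.8 CPM. These sums weigh abundant genes most, and no test was made of a sum over genes or of the differences between complexes.

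The ATP synthase (complex V) held 3 of the 4 called genes, 3 of its 18 tested (16.7%) against 0.844% of all tested genes, and all 3 belong to its F1 head, the part in the matrix where ATP is made. With each of the 8 libraries left out in turn, Atp5a1 was called 3 times, Atp5b 2 times and Atp5c1 2 times, and none was called after the exon length correction described further on. Atp5b, the catalytic beta subunit (ENSMUSG00000025393, mm10 chromosome 10, 128083273 to 128090391, plus strand), was at 368, 373, 334 and 298 CPM in plasma-negative replicates 1 to 4 and at 484, 526, 464 and 506 CPM in plasma-positive replicates 1 to 4. All plasma-positive values lay above all plasma-negative ones. The log2 fold change of Atp5b was 0.53 with a standard error of 0.10, and its adjusted p in the edgeR fit was 0.0248. Atp5a1, the alpha subunit (ENSMUSG00000025428), stood at 323, 379, 312 and 356 CPM in the plasma-negative and 578, 514, 459 and 475 CPM in the plasma-positive libraries. Again the groups did not overlap, with a log2 fold change of 0.56 ± 0.11 (SE) and an edgeR adjusted p of 0.0248. Atp5c1, the gamma subunit that turns inside the head (ENSMUSG00000025781, chromosome 2, 10056016 to 10080510, minus strand), was at 140, 128, 102 and 122 CPM in the plasma-negative and 193, 213, 196 and 193 CPM in the plasma-positive libraries, also without overlap. Its log2 fold change was 0.69 ± 0.13 (SE), with an edgeR adjusted p of 0.0259.

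The remaining F1 subunits, delta (Atp5d) and epsilon (Atp5e), were not called: their log2 fold changes were 0.30 and 0.34, with edgeR adjusted p of 0.54 and 0.488. Summed over its 5 genes, the F1 head was at 1079, 1076, 902 and 975 CPM in the plasma-negative and 1466, 1544, 1357 and 1424 CPM in the plasma-positive libraries. The peripheral stalk, which holds the head still, had 5 rows with a median log2 fold change of 0.57 and no call. Its highest value was for Atp5h, at 32.4 ± 3.91 CPM in the plasma-negative group and 55.3 ± 6.29 CPM in the plasma-positive group (SD, n = 4 each), a log2 fold change of 0.78 with an edgeR adjusted p of 0.0962. Of the stalk rows, Atp5o was listed both as its own gene (log2 fold change 0.65, edgeR adjusted p 0.147) and as a readthrough locus whose exons lie wholly within those of other genes, so these counts are uncertain.

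The c ring, the rotor that protons turn, is built from an identical mature protein encoded by Atp5g1, Atp5g2 and Atp5g3. The RPKM scale (reads scaled to exon length and library size) allows levels of different genes to be set side by side. Its library total includes uncounted reads, whose share differed between the groups as given above. With limma on log2(RPKM + 1), all tested genes had a median log2 fold change of 0.11. In RPKM, Atp5g3 was at 12.4 ± 3.7 in the plasma-negative and 16.9 ± 3.79 in the plasma-positive group (SD, n = 4 each). Atp5g1 was at 0.436 ± 0.0927 and 1 ± 0.404 RPKM and Atp5g2 at 0.635 ± 0.452 and 0.211 ± 0.156 RPKM (SD, n = 4 each), far below Atp5g3 in both groups. None of the 3 was called: the log2 fold changes were 0.31 for Atp5g3, 1.05 for Atp5g1 and -1.72 with a standard error of 1.07 for Atp5g2.

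The membrane part of the synthase contained Atp5l, 1 of the 3 members with a log2 fold change below 0, beside Atp5g2 and Cox6a2, and the only member whose plasma-positive values all lay below the plasma-negative ones. Atp5l, the g subunit (ENSMUSG00000038717, mm10 chromosome 9, 44912557 to 44920742, minus strand), was at 20.6, 25.4, 13.3 and 15.8 CPM in the plasma-negative and at 10.6, 6.46, 4.97 and 5.92 CPM in the plasma-positive libraries. Every plasma-positive value lay below every plasma-negative one. The log2 fold change was -1.43 with a standard error of 0.43, and it missed the threshold in edgeR (adjusted p = 0.141, unadjusted p = 0.00626). This gene was picked out after its values had been seen. Of the merged exons of Atp5l, 6443 bases in all, 91.6% lie outside its protein-coding transcripts, the highest share among the members. The merged exons of those coding transcripts span 544 bases. Reads are not separated by transcript in the deposited values. The share of Atp5l reads that came from coding transcripts was not tested.

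**Figure D2:**
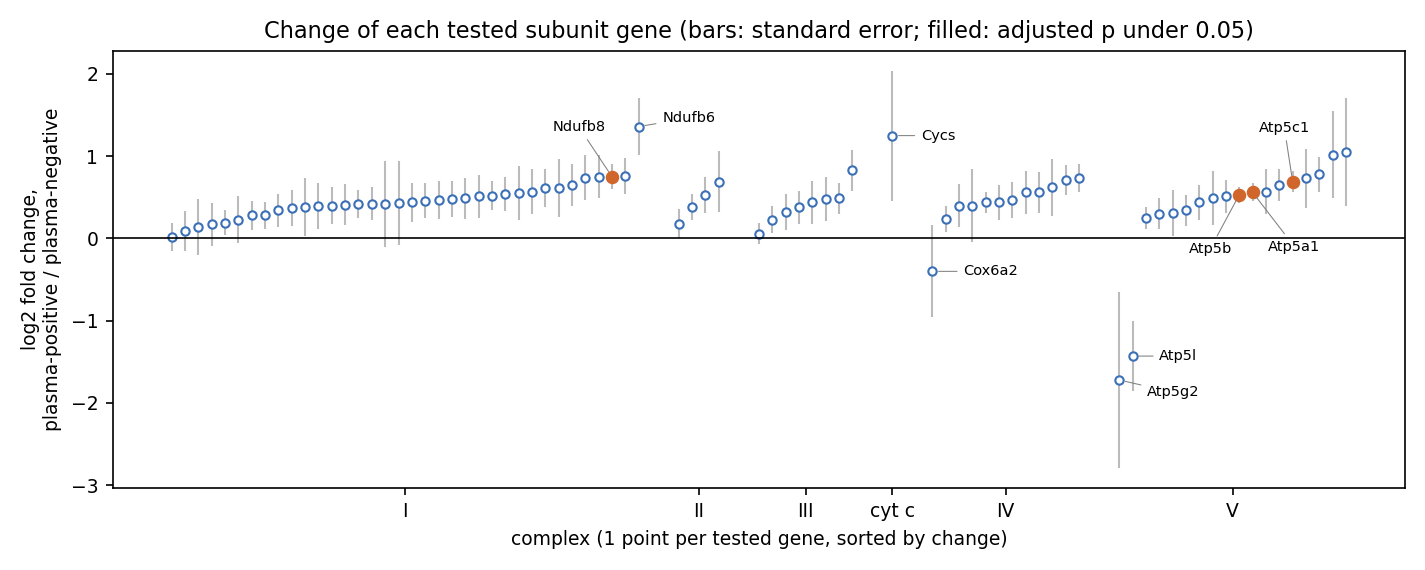
Log2 fold change of plasma-positive over plasma-negative (vertical axis) for each of the 79 tested genes, grouped by complex and sorted within it, with the standard error as grey bars and called genes filled orange. All but 3 points (Atp5g2, Atp5l and Cox6a2) lie above 0, and the 4 filled points have small errors and changes above the median of 0.46.

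In complex I, all 36 tested genes had a log2 fold change above 0, with a median of 0.43. Of the 36, 1 (2.78%, against 0.844% of all tested genes) was called higher, Ndufb8. Ndufb8, a supernumerary subunit of the membrane arm (ENSMUSG00000025204, mm10 chromosome 19, 44548572 to 44555440, minus strand), was at 60.0, 58.9, 70.9 and 63.3 CPM in the plasma-negative and at 109, 113, 109 and 93.7 CPM in the plasma-positive libraries. The groups were well apart. The log2 fold change was 0.75 ± 0.15 (SE) and the edgeR adjusted p was 0.0346. None of the 8 fits without a library called Ndufb8, nor did the fit with the exon length correction described further on. The largest change in the complex was that of Ndufb6, another membrane arm subunit, at 26.7, 9, 12.5 and 16.2 CPM in the plasma-negative and 40.2, 52.8, 36.9 and 36.2 CPM in the plasma-positive libraries. Its log2 fold change of 1.36 ± 0.35 (SE) was not called (edgeR adjusted p = 0.0849), and 39% of its exon bases overlap those of Smim27, so its counts are uncertain.

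The 7 core subunits of complex I, which carry the flavin and the iron-sulphur clusters, had a median log2 fold change of 0.49 and the 29 tested supernumerary subunits one of 0.42. Among the core subunits, Ndufs1 (0.57) and Ndufv1, which binds NADH (0.49), had log2 fold changes like the median, with edgeR adjusted p of 0.392 and 0.43. Ndufs7, which holds the last iron-sulphur cluster before ubiquinone, did not follow: it was at 79.4, 101, 95.4 and 73.4 CPM in the plasma-negative and 83.5, 88.2, 80.6 and 102 CPM in the plasma-positive libraries. These groups overlapped throughout, and its log2 fold change of 0.02 ± 0.17 (SE) turned negative with relative log expression scaling and with library totals only, but not with upper-quartile scaling. Ndufc2 had the highest RPKM of the complex, 106 ± 19.5 in the plasma-negative and 140 ± 14.4 in the plasma-positive group (SD, n = 4 each), and was not called (log2 fold change 0.28, edgeR adjusted p 0.496).

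Complexes II and III and cytochrome c had no called gene. All 4 subunits of succinate dehydrogenase, complex II, had a log2 fold change above 0: Sdha, the flavoprotein, had 0.38, Sdhb, the iron-sulphur subunit, 0.18, and Sdhd, a membrane anchor, 0.69, with edgeR adjusted p of 0.311, 0.747 and 0.449. In complex III all 8 genes were above 0, from Uqcrfs1, the Rieske iron-sulphur protein, at 0.06 to Uqcr10, a small subunit, at 0.83 (edgeR adjusted p 0.912 and 0.138). Uqcrfs1 was nearly level, at 121, 108, 121 and 135 CPM in the plasma-negative and 132, 130, 128 and 113 CPM in the plasma-positive libraries, and its sign changed when only library totals were used. Uqcrc1, a core protein of the complex, had a log2 fold change of 0.23. Cycs, somatic cytochrome c, was low, at 1.59, 0.944, 4.60 and 1.35 CPM in the plasma-negative and 4.84, 6.96, 4.77 and 3.8 CPM in the plasma-positive libraries, with overlap between plasma-negative replicate 3 and plasma-positive replicate 4. Its log2 fold change was 1.25 ± 0.79 (SE), with an edgeR adjusted p of 0.539.

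**Figure D3:**
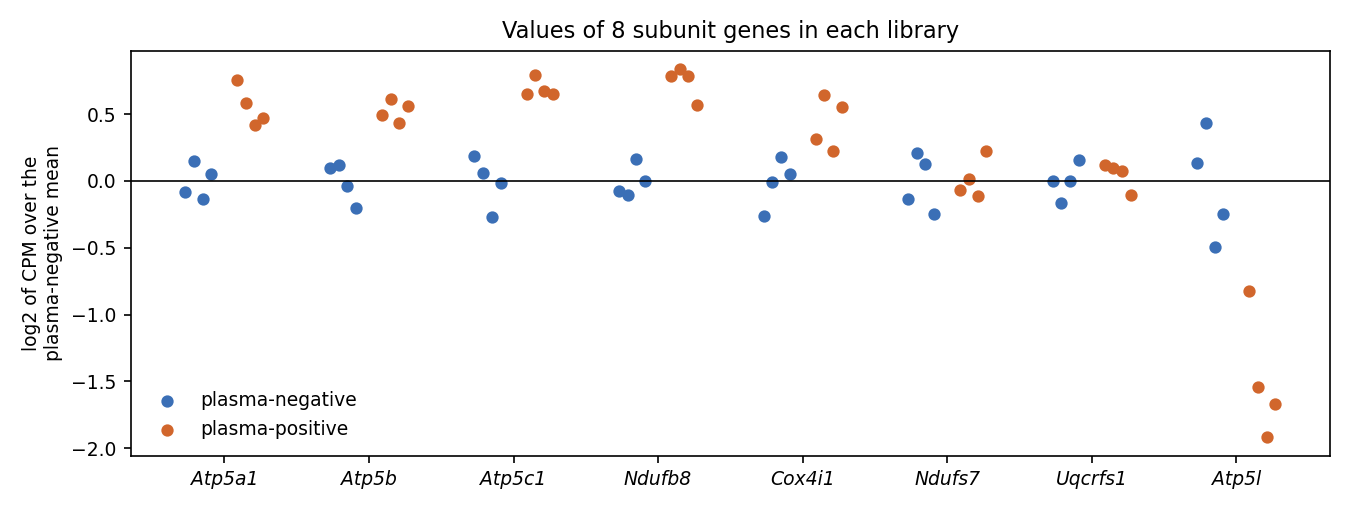
Log2 of CPM over the mean of the plasma-negative libraries (vertical axis) for 8 subunit genes in each library, plasma-negative blue and plasma-positive orange, replicates 1 to 4 from left to right. Atp5a1, Atp5b, Atp5c1, Ndufb8 and Cox4i1 have all orange points above the blue ones, Ndufs7 and Uqcrfs1 overlap, and Atp5l has all orange points below.

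Complex IV had 12 tested genes, 11 of them with a log2 fold change above 0, a median of 0.46 and no call. Cox6b1 came closest: it was at 64.4, 81.2, 66.4 and 49.1 CPM in the plasma-negative and 113, 110, 102 and 113 CPM in the plasma-positive libraries. The groups did not overlap, and the log2 fold change of 0.74 ± 0.17 (SE) had an edgeR adjusted p of 0.0605. Cox4i1, the ubiquitous form of subunit 4, had the highest RPKM of all members, 133 ± 16.8 in the plasma-negative and 198 ± 27.3 in the plasma-positive group (SD, n = 4 each), and in CPM it stood at 236, 281, 321 and 294 against 351, 442, 330 and 415. Its plasma-positive values all lay above the plasma-negative ones, by little for replicate 3, and its log2 fold change of 0.44 was not called (edgeR adjusted p 0.129). Cox8a, the liver-type form of subunit 8, had a log2 fold change of 0.71 (edgeR adjusted p 0.0828), while Cox5a (0.44), Cox6a1 (0.47) and Cox7a2 (0.40) had edgeR adjusted p of 0.4, 0.359 and 0.544.

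Several subunits of complex IV exist as paralogs known from particular tissues, and in these microglia 1 form led each pair. Cox4i1 had 133 RPKM in the plasma-negative group, and Cox4i2, the lung form, had counts in plasma-negative replicate 2 alone. Cox6a1 was at 72.9 ± 22.7 and 111 ± 5.83 RPKM in the plasma-negative and plasma-positive groups (SD, n = 4 each). Cox6a2, the heart and muscle form, was at 11.2 ± 2.91 and 9.30 ± 5.64 RPKM (SD, n = 4 each), with a log2 fold change of -0.40 that was not called. Of the exon bases of Cox6a2, 10.3% overlap those of Itgad, so its counts are uncertain. Cox8a was at 106 ± 22.7 and 190 ± 35.1 RPKM, whereas its muscle form Cox8b had a count in plasma-positive replicate 2 alone. Cox7a2 was at 25.9 and 37.6 RPKM, and Cox7a1, the muscle form, was at 0 and 0.672. The testis form Cox6b2 was at 0.146 and 0.336 RPKM, against 67.2 and 124 for Cox6b1. Ndufa4 was at 23.3 ± 4.57 and 43.5 ± 9.14 RPKM (SD, n = 4 each; log2 fold change 0.76, edgeR adjusted p 0.126), and its hypoxia-inducible relative Ndufa4l2 had no count. Of the 7 members that were not tested, 3 (Ndufa4l2, Cox7b2 and Cox8c) had no count and Cox4i2, Cox6b2, Cox7a1 and Cox8b did not reach the expression filter. The 13 subunits encoded in mitochondrial DNA were listed at 0 counts in all 8 libraries, so nothing can be said of them.

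The promoters of the members were searched for motifs known from respiratory genes. RefSeq windows of GRCm38.p6, from 250 bases before to 50 after the start of a gene, matched 68 member genes by symbol. Exact matches were sought on both strands, and they describe letters, not binding. The NRF1 core (GCGCATGC), for the nuclear respiratory factor, was in 11 of the 68 (16.2%), against 3.05% of all 27025 genes of the table and 6.16% of the other tested genes. The YY1 core (AAGATGGC) was in 9 (13.2%), against 3.19% and 5.66%, and the ETS core (CCGGAAG), which GABP factors bind, was in 17 (25%), against 9.93% and 21.4%. The CCAAT box (CCAAT) was in 31 (45.6%), against 41.1% and 42.9%. Overlaps between motifs were not removed. The stretches below, 200 bases ending 50 bases before the start, are of 2 called genes, of cytochrome c and of Atp5l, each 5′ to 3′ on the strand of its gene, with matches in capitals.
Atp5b chr10:128083057-128083256 plus: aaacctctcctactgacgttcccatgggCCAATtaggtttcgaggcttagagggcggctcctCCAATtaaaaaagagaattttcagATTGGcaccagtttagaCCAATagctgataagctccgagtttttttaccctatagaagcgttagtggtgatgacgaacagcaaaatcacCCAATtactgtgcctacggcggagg
Ndufb8 chr19:44555493-44555692 minus: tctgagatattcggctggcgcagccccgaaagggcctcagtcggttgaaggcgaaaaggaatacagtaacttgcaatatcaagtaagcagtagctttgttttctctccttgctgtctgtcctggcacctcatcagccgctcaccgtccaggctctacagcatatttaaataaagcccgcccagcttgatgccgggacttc
Cycs chr6:50566620-50566819 minus: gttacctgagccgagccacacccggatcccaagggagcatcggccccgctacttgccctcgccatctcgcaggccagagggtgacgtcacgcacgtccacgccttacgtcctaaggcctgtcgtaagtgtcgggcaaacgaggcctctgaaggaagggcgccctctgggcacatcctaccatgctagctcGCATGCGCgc
Atp5l chr9:44920793-44920992 minus: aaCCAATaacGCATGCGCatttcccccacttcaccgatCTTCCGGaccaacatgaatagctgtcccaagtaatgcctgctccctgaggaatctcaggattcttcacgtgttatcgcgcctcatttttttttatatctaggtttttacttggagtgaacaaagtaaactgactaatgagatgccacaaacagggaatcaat
Atp5b shows 5 CCAAT boxes, 1 of them on the other strand, at positions -222, -188, -164, -147 and -75 from the start. Ndufb8 shows none of the 4 motifs here and has a YY1 core in the rest of its window. Cycs shows an NRF1 core at -60 and has a CCAAT box in the rest of its window. Atp5l shows a CCAAT box at -248, an NRF1 core at -240 and an ETS core at -212.

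Mitochondrial genes outside the complexes were also described, from lists of pathways and families. Of 12 tested subunits and carriers that the symbol rule misses, 11 had a log2 fold change above 0, with a median of 0.33 and no call; Slc25a3, the phosphate carrier, had 0.65 (edgeR adjusted p 0.0593) and Cyc1, cytochrome c1, had -0.22. Of 24 tested genes of protein import (Tomm and Timm), 22 were above 0, with a median of 0.37 and no call. The prefix also takes in Tomm6os, an opposite-strand transcript, and without it 21 of 23 were above 0, with a median of 0.32. Among 17 genes of the citric acid cycle and pyruvate dehydrogenase, 14 were above 0, the median was 0.20, and 1 (5.88%, against 0.844% of all tested genes) was called higher: Idh3b, a subunit of isocitrate dehydrogenase, went from 52.3 to 96.0 CPM, with a log2 fold change of 0.87 ± 0.18 (SE) and an edgeR adjusted p of 0.0376. Dlst, a subunit of the oxoglutarate dehydrogenase complex, was at 148 ± 27.6 CPM in the plasma-negative and 104 ± 12 CPM in the plasma-positive group (SD, n = 4 each), without overlap, and its log2 fold change of -0.50 was not called (edgeR adjusted p 0.18).

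The mitochondrial ribosome, which translates the subunits encoded in mitochondrial DNA, had 57 of 78 tested genes above 0, with a median of 0.24 and no call. Assembly factors, which build the complexes without staying in them, had 27 of 47 tested genes above 0 (57.4%) with a median of 0.10 and no call, near the 50.4% of all tested genes. The regulators of mitochondrial biogenesis had 5 of 13 above 0, a median of -0.13 and no call. Among them were Nrf1, which binds the motif above, with a log2 fold change of -0.72 (edgeR adjusted p 0.221), Tfam, which packages mitochondrial DNA, with -0.22, and Gabpa, with -0.13. On the other side, Polrmt, the mitochondrial RNA polymerase, had 0.65 (edgeR adjusted p 0.315), with all plasma-positive values above the plasma-negative ones, and Tfb1m and Ppargc1b had 0.95 and 0.87 with standard errors of 0.84 and 0.91. The differences between these lists were not tested.

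**Figure D4:**
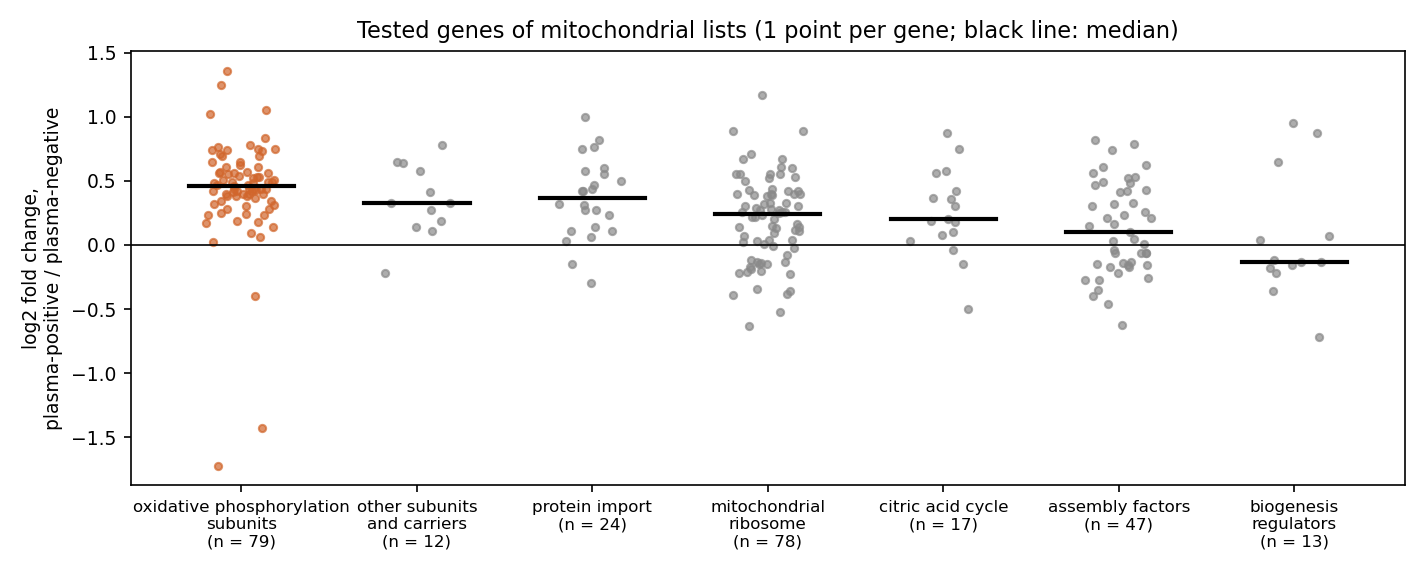
Log2 fold change of plasma-positive over plasma-negative (vertical axis) for each tested gene of the oxidative phosphorylation set (orange) and of 6 other mitochondrial lists (grey), with the median of each list as a black line. The medians go from 0.46 for the 79 subunits to 0.10 for the 47 assembly factors and -0.13 for the 13 regulators.

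Exon length moved with the change in these data. The members are short genes, with a median merged exon length of 1675 bases, against 3976 over all tested genes, and over the 8890 genes with a mean of at least 10 CPM the log2 fold change fell with length (Spearman's rho -0.345, across genes of the same libraries). Over all 13277 tested genes rho was weaker, -0.128. Over the 79 members rho was -0.222. In every length bin the members' median lay above that of other genes with a mean of at least 10 CPM: below 1000 bases the median was 0.57 for 17 members and 0.18 for 224 other genes, from 1000 to 2000 bases 0.48 for 27 and 0.24 for 857, from 2000 to 4000 bases 0.44 for 18 and 0.14 for 2631, and from 4000 bases up 0.25 for 9 and -0.09 for 5106. The last bin holds few members. When each library was corrected for exon length, the members' median was 0.40, and with length and GC content it was 0.34, but no member was called in either fit. With the length correction 0.0753% of all tested genes were called higher, and the log2 fold changes of Atp5a1, Atp5b, Atp5c1 and Ndufb8 were 0.44, 0.41, 0.60 and 0.63, with edgeR adjusted p of 0.256, 0.195, 0.158 and 0.197. With length and GC content they were 0.31, 0.39, 0.59 and 0.69. The part of length in the difference was not tested further.

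**Figure D5:**
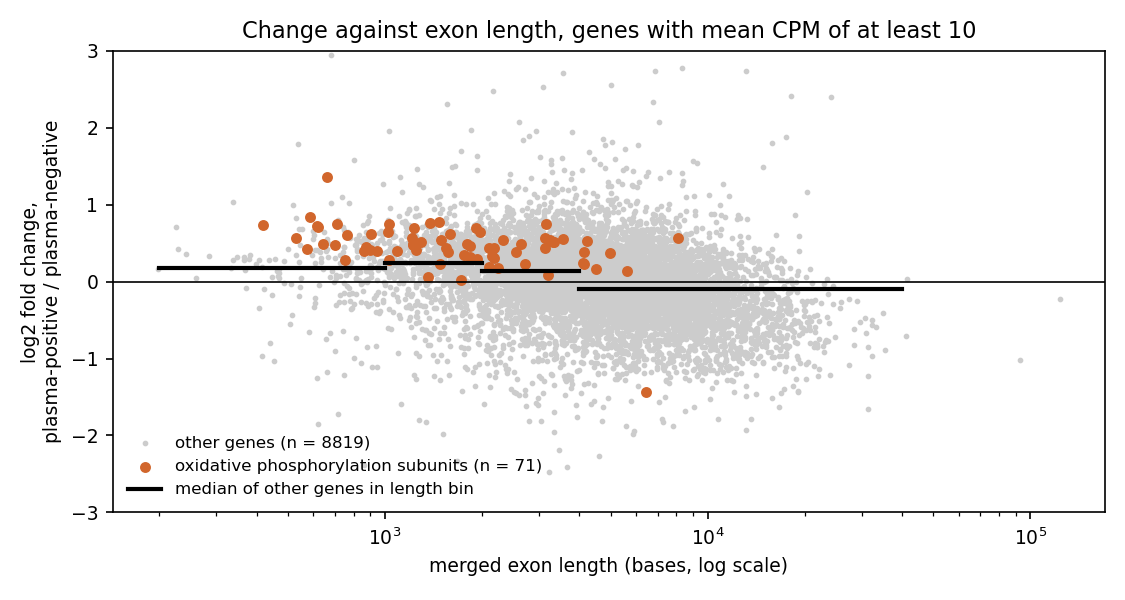
Log2 fold change (vertical axis, 3 genes lie outside it) against merged exon length in bases (horizontal axis, log scale) for genes with a mean of at least 10 CPM, 71 members in orange and 8819 other genes in grey, with the median of the other genes in each length bin as a black line. Most orange points lie above the line of their bin, with Atp5l far below.

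RNA of other cell types also differed between libraries. Summed neuron markers ran from 4.04 to 34.0 CPM in the plasma-negative libraries and from 5.47 to 289 CPM in the plasma-positive ones, with the highest value in replicate 2. Oligodendrocyte markers ran from 158 to 230 and from 222 to 533 CPM, astrocyte markers from 214 to 328 and from 209 to 302 CPM, and endothelial markers from 18.5 to 37.0 and from 17.8 to 59.5 CPM. Border macrophage markers ran from 0.881 to 3.61 and from 1.76 to 15.8 CPM, with 3 of 6 markers (Cd163, Lyve1 and F13a1) at 0 in all libraries, and monocyte and neutrophil markers from 0.673 to 13.8 and from 0.11 to 904 CPM, the last value being plasma-positive replicate 3. The members' median without plasma-positive replicate 2 was 0.42 and without replicate 3 it was 0.48, with 0 and 1 of them called. The markers that passed the expression filter were 5 of 8 for neurons, 6 of 7 for oligodendrocytes, 5 of 7 for astrocytes, 1 of 6 for endothelium, 1 of 6 for border macrophages and 0 of 6 for monocytes and neutrophils. None of those tested was called, but the log2 fold change was above 0 for all 5 tested neuron markers (median 2.34) and all 6 oligodendrocyte markers (median 1.26). It was also above 0 for 4 of the 5 astrocyte markers (median 2.29). The filter can pass a marker through the group where it is high, so these signs depend in part on it. Of the markers left out, Mog, Gfap and Aqp4 had lower means in the plasma-positive group, and Gad1, Stmn2 and Slc17a6 higher ones. Summed neuron markers stood at 73.4, 289, 6.45 and 5.47 CPM in plasma-positive replicates 1 to 4, against a plasma-negative mean of 16.3 CPM. The astrocyte sum is mostly Slc1a3, at 238 CPM in the plasma-negative and 185 CPM in the plasma-positive group, the tested astrocyte marker with a value below 0 (-0.36). In the plasma-negative group, Cnp made up 98.9 of the 184 CPM of oligodendrocyte markers and Pecam1 28 of the 28.1 CPM of endothelial markers. The part of such RNA in the subunit genes was not tested. Exons that overlap another gene's were found for 31 members, and the 49 tested members with none had a median of 0.48, with 49 above 0 (50.4% of all tested genes were) and 2 called higher (0.844% of all tested genes were).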

How the data were processed

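Whole-number counts per gene, and RPKM values for the same genes and libraries, were deposited by the authors, in columns named for the libraries, per the file headers. The submitters' processing notes name bcl2fastq, Trim Galore, STAR, HTSeq and build mm10. How each was run, and how strand and reads matching several places were treated, is not given in the sources used here. Of 35583 rows, 35546 matched GENCODE M21, which gave exon lengths and overlaps. The 16 deposited columns of standard deviations were not used.

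The test was edgeR 4.0.16 (R 4.3.3) on the counts: TMM factors, its expression filter by group, the quasi-likelihood F test of group without covariates, and Benjamini-Hochberg adjustment over 13277 tested genes, called at 0.05. Standard errors were taken as log2 fold change over the root of F. CPM uses TMM library sizes; RPKM is as deposited. The calculation was tested on simulated data. Members and gene lists were chosen with earlier results of these data known. Names ending in -ps were left out of the pathway lists too. Named genes are the called members, the largest, smallest and most abundant of each complex, and fixed core and isoform genes; Atp5l, Atp5h, Atp5d, Atp5e and Atp5o were added after their values had been seen. Reads carry no molecular identifiers. Alternatives were other scalings, filters, DESeq2 1.42.0, limma 3.58.1 on voom weights or on log2(RPKM + 1) and log2(RPKM + 0.1), a replicate block, loess length and GC corrections (span 0.3), and leaving out each library.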

Additional observations from a re-analysis of the deposited data

Results flagged for a closer look

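Outlying libraries were sought for the named genes with counts, apart from Atp5o. The summed levels of all members and of each of complexes I to V were checked too, 81 groups of 4 libraries in all. A library was flagged where its gap to the nearest other exceeded Dixon's 95% critical value. Of the groups, 6 (7.41%) had such a library, where chance gives about 5%. In the plasma-negative group these were Cox4i2 in replicate 2, at 0.441 CPM with 0 in the others, Cox6b2 in replicate 1, at 0.886 CPM with 0 in the others, and Atp5g3 in replicate 4, the shallowest library, at 20.2 CPM where the next was 41. In the plasma-positive group they were Ndufc2 in replicate 3, at 111 CPM where the next was 137, Cox6a1 in replicate 1, at 90.4 CPM where the next was 99.3, and Cox8b in replicate 2, at 0.0508 CPM with 0 in the others. The Cox4i2, Cox6b2 and Cox8b values rest on a few counts.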

How the results depend on the processing

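The count of members called higher (4) was 0 with library totals only, with the replicate block, and with the exon length or length and GC corrections, each with or without replicate block. It was 11 with DESeq2, 17 with limma on log2(RPKM + 1), 17 with log2(RPKM + 0.1), 8 at an adjusted p under 0.1, 2 with overlapping members left out, and 0 to 3 when each library was left out. DESeq2 called 1 member lower, and edgeR 0. The count over all genes (187) was 694 with DESeq2, 447 and 432 with limma on log2(RPKM + 1) and log2(RPKM + 0.1), 74 with the replicate block, 16 with the length correction and 3 with block too, 15 with length and GC and 3 with block too, 407 at an adjusted p under 0.1, and 66 to 203 without each library in turn. The split of these calls, 112 higher and 75 lower, was 64 and 163 with library totals only, 388 and 59 with log2(RPKM + 1) and 370 and 62 with log2(RPKM + 0.1). The median of the members (0.46) was 0.35 with totals only, 0.56 and 0.60 with the RPKM values, where all tested genes had medians of 0.11 and 0.16, 0.34 with length and GC and 0.39 with block too, and 0.42 to 0.48 without each library. Ndufs7 turned to -0.01 under relative log expression scaling and DESeq2, -0.10 with totals only, -0.07 with the length correction with and without block, -0.25 with length and GC and -0.26 with block too, and ran from -0.05 to 0.10 without each library. Sdhb turned to -0.07 with length and GC and -0.03 with block too, and Uqcrfs1 to -0.06 with totals only, -0.04 with the length correction and -0.02 with block too. The causes of these shifts were not tested, and the length and GC fit with block and the fit without overlapping members were added after the data had been seen.

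Libraries with the same replicate number correlated at 0.0119, 0.0126, 0.0109 and 0.0315 in their deviations from the group means, so the numbers do not show a pairing. With the replicate block the members' median was 0.48, with 0 called, and Atp5a1, Atp5b, Atp5c1 and Ndufb8 had edgeR adjusted p of 0.0645, 0.0654, 0.0726 and 0.114. Plasma-negative replicate 4 has the fewest counts, 2963094, and genes such as Cycs and Atp5g2 rest on few reads there.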
